A study of Mus musculus with 29 samples.

Results

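The response to interferon gamma (IFNγ) was measured in melanoma cells that had already been stimulated with transforming growth factor beta (TGFβ). The cells were of the mouse melanoma line NMM, which carries mutant NRAS, and their mRNA was sequenced. The comparison takes 8 of the 29 libraries of the study: the 4 that received TGFβ at 10 ng/ml for 2, 6, 12 or 24 h and then IFNγ at 100 ng/ml for 24 h, and the 4 that received the same TGFβ and then medium for 24 h. They were chosen by their labels alone and paired by the duration of the TGFβ stimulation. Both sides carried mutant NRAS, met TGFβ first and were washed with PBS before the second stimulation, so that the second stimulus was the labelled difference between them, and none of the 8 libraries shows the cells without TGFβ. A longer first stimulation also put the harvest later after the first addition. Beside them stand 4 libraries of medium for the same durations followed by IFNγ and 4 of medium followed by medium, which give the IFNγ response without TGFβ, and 4 of medium followed by 24 h of TGFβ. NMM is a single line, each sequence has 1 library per duration, and the labels name no separate cultures. The p-values below thus rest on the spread among single libraries per duration, part of which may be technical.

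IFNγ binds a receptor of IFNGR1 and IFNGR2 chains, whose kinases JAK1 and JAK2 start a signal that reaches GAS elements in promoters such as that of Irf1. The interferon regulatory factors made in turn act through ISRE elements on guanylate-binding proteins, antigen presentation and antiviral genes. TGFβ binds a receptor of TGFBR1 and TGFBR2 chains, signals through SMAD proteins, and is known for inducing extracellular matrix and for damping interferon responses and antigen presentation in tumours.

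The 8 libraries held 17269922 to 23668015 counts, with 0.624% to 1.23% from mitochondrial genes. Their 2 and 6 h libraries stood apart from those of 12 and 24 h. On the first principal component of all 29 libraries (38.9% of the variance), the medium-second libraries lay at -16.4 and -25.8 at 2 and 6 h and at -56.8 and -59.5 at 12 and 24 h. The IFNγ-second libraries lay at 50.4 or above at 2 and 6 h and at 28.1 and 14.2 at 12 and 24 h. Counts of genes are therefore also given for the early and the late pair of durations. Of the melanocyte genes, Mitf (10.3 to 12.9 CPM, the count scaled to the size of its library), Gpnmb and Pax3 were measured in all 8 libraries, while Sox10 reached at most 0.0564 CPM and Pmel 0.325 CPM, so these defining markers of the labelled cell type were near 0. Of 20 leukocyte markers 10 were in the table and summed to 20.9 to 56.7 CPM with medium second and 22.6 to 71.4 CPM with IFNγ second, of which Cd14 made up 17.1 to 50.7 and 18.9 to 66.4 CPM, with Csf1r and Lyz2 at 0. In such bulk samples, fewer cells of a type and less RNA per cell cannot be told apart.

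Promoters show where the 2 motif classes of the pathway lie in genes that the results turn on. GAS was searched as TTCNNNGAA and ISRE as GAAANNGAAA, on both strands, in the 250 bases before the gene start (RefSeq, GRCm38.p6). The sequences below run 5′ to 3′ on the strand of the gene, and the capitals mark the motif matches.
Irf1: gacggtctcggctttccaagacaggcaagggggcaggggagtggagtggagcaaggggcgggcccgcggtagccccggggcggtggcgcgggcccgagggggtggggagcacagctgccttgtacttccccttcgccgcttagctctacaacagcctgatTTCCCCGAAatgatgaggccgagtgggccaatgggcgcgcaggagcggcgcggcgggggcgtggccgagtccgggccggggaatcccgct
Gbp2: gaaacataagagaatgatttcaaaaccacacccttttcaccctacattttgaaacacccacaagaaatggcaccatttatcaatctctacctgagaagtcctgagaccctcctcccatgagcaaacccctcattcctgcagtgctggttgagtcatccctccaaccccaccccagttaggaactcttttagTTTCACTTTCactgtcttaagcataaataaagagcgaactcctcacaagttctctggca
Gbp5: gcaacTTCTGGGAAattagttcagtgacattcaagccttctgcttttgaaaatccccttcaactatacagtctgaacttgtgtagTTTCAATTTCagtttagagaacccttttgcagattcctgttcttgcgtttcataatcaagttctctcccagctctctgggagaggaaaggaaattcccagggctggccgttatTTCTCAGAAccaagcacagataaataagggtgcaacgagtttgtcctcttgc
Tgtp1: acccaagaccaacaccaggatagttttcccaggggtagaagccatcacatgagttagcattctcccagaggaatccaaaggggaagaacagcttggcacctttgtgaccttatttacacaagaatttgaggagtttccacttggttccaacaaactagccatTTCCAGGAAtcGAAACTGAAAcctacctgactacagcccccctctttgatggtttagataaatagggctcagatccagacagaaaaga
Cxcl10: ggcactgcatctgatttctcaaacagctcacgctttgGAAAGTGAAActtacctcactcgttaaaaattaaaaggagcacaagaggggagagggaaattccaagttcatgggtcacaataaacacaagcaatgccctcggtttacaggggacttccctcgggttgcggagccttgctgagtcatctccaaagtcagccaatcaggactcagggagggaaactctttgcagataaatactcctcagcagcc
Rsad2: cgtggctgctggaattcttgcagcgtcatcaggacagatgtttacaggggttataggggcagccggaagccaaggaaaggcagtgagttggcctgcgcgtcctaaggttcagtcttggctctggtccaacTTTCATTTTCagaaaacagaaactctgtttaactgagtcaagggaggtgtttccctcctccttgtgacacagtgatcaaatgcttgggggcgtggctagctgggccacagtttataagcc
Ifit3: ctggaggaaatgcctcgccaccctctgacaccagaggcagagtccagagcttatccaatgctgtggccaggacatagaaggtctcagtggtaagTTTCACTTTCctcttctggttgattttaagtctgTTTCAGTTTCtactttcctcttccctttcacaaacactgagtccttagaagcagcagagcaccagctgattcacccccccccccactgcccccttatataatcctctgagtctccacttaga
Irf1 (chr11:53769764-53770013, plus strand) holds 1 GAS match, whose first base lies 90 bases before the start, and a second annotated start of Irf1 has none. Gbp2 (chr3:142620413-142620662, plus strand) holds 1 ISRE match at 59 bases. Gbp5 (chr3:142496684-142496933, plus strand) holds GAS matches at 245 and 52 bases and an ISRE match at 165. In Tgtp1 (chr11:48992247-48992496, minus strand) a GAS match at 88 bases and an ISRE match at 77 stand beside each other. Cxcl10 (chr5:92348890-92349139, minus strand) and Rsad2 (chr12:26456453-26456702, minus strand) hold 1 ISRE match each, at 213 and 120 bases, and Ifit3 (chr19:34583279-34583528, plus strand) holds 2, at 156 and 122 bases. The windows of Cxcl9, Cd274, Irf7, Tap1, Psmb9 and H2-K1 have no match to these letters. Of all 32851 promoter windows in the RefSeq table, 7.02% held a GAS match, 2.98% an ISRE match and 109 windows both, of which 18 had the matches overlapping. For the 12821 windows of tested genes the shares were 5.94% and 2.67%. Among the 551 windows of genes that rose at least 2-fold with IFNγ the shares were 8.17% and 13.1%, and among the 342 windows of genes that fell at least 2-fold 5.56% and 2.63%. Windows were found for 10069 of the tested genes, 442 of the 637 that rose and 248 of the 385 that fell. The 19 tested GBP and IRG proteins had 10 windows, from 9 genes, of which 6 held a GAS and 9 an ISRE match. A match is a run of letters and no measurement of binding.

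IFNγ changed the transcriptome of the TGFβ-pretreated cells broadly, and interferon genes were among those with the highest fold changes. Of 14935 genes tested, the edgeR quasi-likelihood test called 2808 higher (18.8%) and 2626 lower (17.6%) at an adjusted p below 0.05. Changes of at least 2-fold were less even, with 637 higher (4.27%) and 385 lower (2.58%). All 4 IFNγ libraries lay above all 4 medium libraries for 12.5% of genes and below them for 12.3%. The median log2 fold change over all genes was -0.0077. With upper-quartile in place of TMM scaling that median was -0.11, and 1820 genes were called higher and 4044 lower, so that 31% of the called genes were higher instead of 51.7%. With only the 12 and 24 h libraries of the 2 sequences the counts were 1173 higher and 800 lower, and with only those of 2 and 6 h 2393 and 2136. Fold changes below are given on the log2 scale with their standard error (SE), and CPM values in the order 2, 6, 12 and 24 h of TGFβ.

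Irf1 (chromosome 11, 53770014 to 53778374), a transcription factor made early in the response, stood at 39.3, 22.8, 11.9 and 9.13 CPM with medium second and at 497, 475, 490.5 and 433 CPM with IFNγ second. The IFNγ libraries were all above the medium libraries and close to each other, while the medium libraries were lower the longer TGFβ had been given. Irf1 rose by 4.61 (SE 0.29, adjusted p = 7.38e-11). The chemokine Cxcl9 (chromosome 5, 92321347 to 92328079), which attracts T cells through CXCR3, was near 0 with medium second, at 1.15, 0.383, 0 and 0.0574 CPM, and reached 106, 130.1, 88.4 and 42.2 CPM with IFNγ. No value overlapped, and the fold change was 7.72 (SE 0.41, adjusted p = 4.77e-12). Cd274 (chromosome 19, 29367455 to 29388095) codes for PD-L1, the ligand that inhibits T cells through PD-1. It stood at 16.6, 7.43, 1.03 and 1.32 CPM and rose to 307, 315, 184 and 123 CPM, by 5.25 (SE 0.47, adjusted p = 1.56e-08). Both groups had less Cd274 at 12 and 24 h of TGFβ than at 2 and 6 h, without overlap between them.

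**Figure D1:**
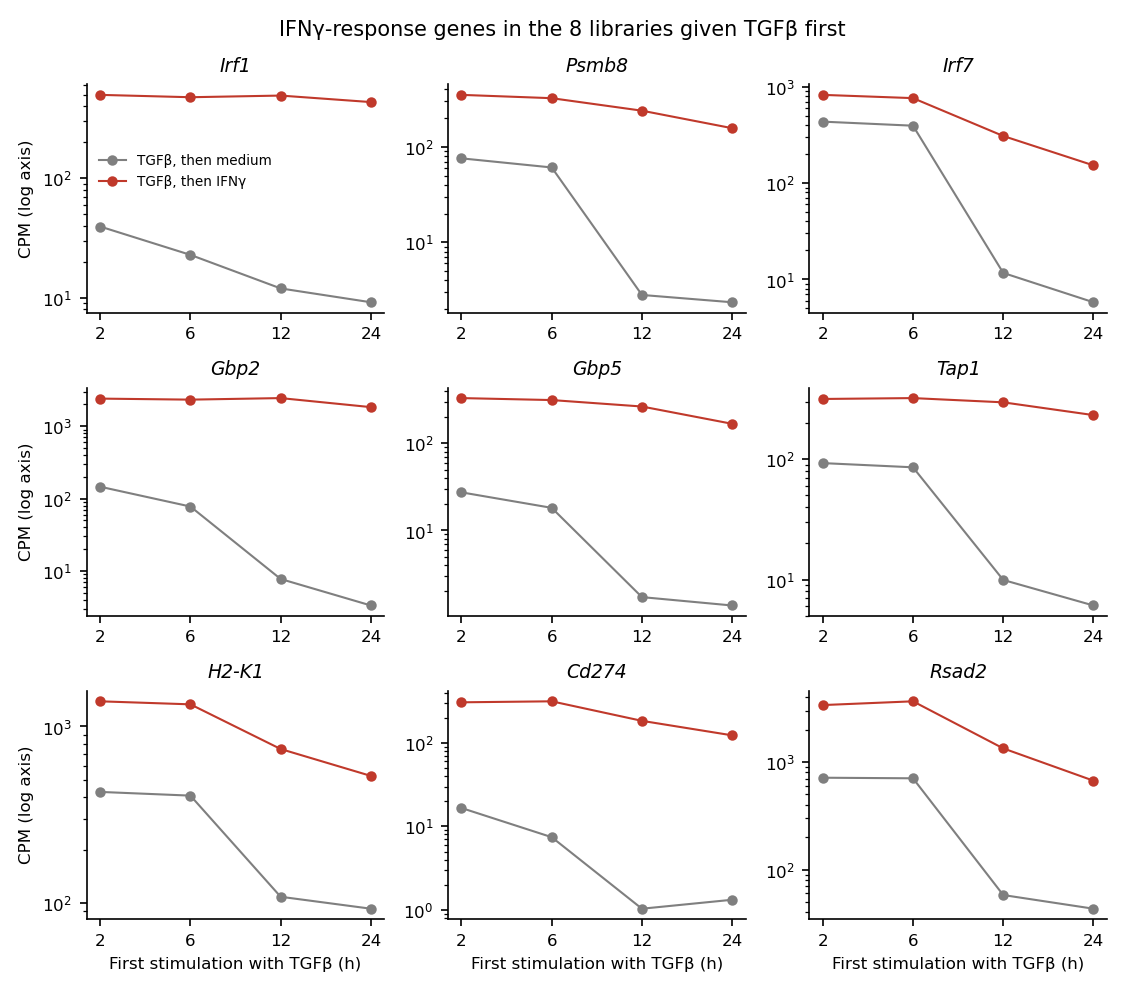
CPM (log axis) of 9 interferon response genes in each of the 8 libraries against the hours of TGFβ before the second stimulus, grey for medium second and red for IFNγ second. With IFNγ second Irf1 stays between 433 and 497 CPM, while with medium second it runs from 39.3 at 2 h to 9.13 CPM at 24 h, and Irf7, Gbp2, Tap1 and Rsad2 drop between 6 and 12 h with medium second.

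Other genes with the highest fold changes, named by rule, were of mixed function. Serpina3f, a serine protease inhibitor, had 0 counts in the 4 medium libraries and 9.05, 7.45, 11.2 and 10.7 CPM with IFNγ, at least 239-fold higher against a floor of 3 counts over the 4 libraries. Apol6, of the apolipoprotein L family, lay at 0.251, 0.0479, 0 and 0 CPM with medium second and at 26.8, 30.4, 28.2 and 25.8 CPM with IFNγ second, a change of 8.35. Batf2, a leucine zipper transcription factor that acts with IRF1, had 7.30. Mpeg1, a pore-forming protein against bacteria, had 5.87, and Acod1, which makes the metabolite itaconate, 5.71. Trim30c, of the tripartite motif family, had 6.21. These last 3 had their highest IFNγ-second values at 2 and 6 h, as in Acod1 with 150.1, 204, 25.6 and 17.4 CPM, and stayed above every medium library.

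Both receptor chains missed the threshold, while most factors and inhibitors below them rose. Of 21 tested genes of IFNγ signalling 16 were called higher (76.2%, against 18.8% of all genes), with a median of 1.38 against -0.0077 for all genes. In 9 of the 21 the groups did not overlap, against 12.5% of all genes on the higher side. The receptor chain Ifngr1 stood at 11.2, 13.1, 13.8 and 14.1 CPM with medium and 9.97, 12.2, 12.3 and 12.7 CPM with IFNγ second, a difference of -0.14 (SE 0.081, adjusted p = 0.178), and Ifngr2 had -0.14 (adjusted p = 0.196). Under upper-quartile scaling both receptor chains were called lower (adjusted p = 0.0241 and 0.0208). Jak1 had 0.088 (adjusted p = 0.119), while the kinase Jak2 stood at 68.7 to 82.4 CPM with medium and at 127 to 152 CPM with IFNγ second, without overlap, and rose by 0.89 (SE 0.084, adjusted p = 3.88e-08).

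Irf7, which drives type I interferon genes, lay at 434, 394, 11.7 and 5.80 CPM with medium second and at 823, 761, 308 and 153 CPM with IFNγ second. In both groups the 12 and 24 h libraries were lower than those of 2 and 6 h, and the groups overlapped. It missed the threshold with 1.73 (SE 0.69, adjusted p = 0.0545) and had 4.72 with only the 12 and 24 h libraries (adjusted p = 0.000156), and DESeq2 called it (adjusted p = 0.0422). It was also called with no count filter (adjusted p = 0.0228), in a fit of only the 2 groups (adjusted p = 0.0397), and without the 24 h IFNγ-second, the 2 h medium-second or the 6 h medium-second library (adjusted p = 0.0418, 0.0176 and 0.0313). Irf8, another interferon regulatory factor, rose by 2.00, and its medium libraries held 29.3, 21.5, 31.5 and 31.9 CPM with no lower level at 12 and 24 h.

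The feedback inhibitors rose as well. Socs1, which blocks JAK kinases, went from 5.17, 3.55, 3.67 and 3.56 CPM to 26.4, 16.5, 21.8 and 17.6 CPM, and Socs3 from 23.9, 19.9, 12.4 and 13.0 to 135, 92.6, 96.9 and 77.5 CPM. Neither overlapped between the groups, and the fold changes were 2.36 (SE 0.16, adjusted p = 3.48e-10) and 2.55 (SE 0.16, adjusted p = 5.83e-11). Nmi, a partner of STAT proteins, rose by 2.14 (SE 0.54, adjusted p = 0.00336) with overlapping groups, and the phosphatase gene Ptpn11 by 0.20 (SE 0.051, adjusted p = 0.00293).

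Guanylate-binding proteins and immunity-related GTPases attack the vacuoles of intracellular microbes. All 19 tested members rose, against 18.8% of all genes, and the median was 3.99. Of them 19 did not overlap between the groups, against 12.5% of all genes on the higher side. Gbp2 stood at 146, 77.6, 7.74 and 3.33 CPM with medium and at 2406, 2329, 2446 and 1835 CPM with IFNγ second, a change of 5.78 (SE 0.74, adjusted p = 2.85e-06). Gbp5, which also promotes inflammasomes, had 27.4, 18.2, 1.72 and 1.38 CPM and 329.6, 313, 264 and 167 CPM, and rose by 4.71. Iigp1, an immunity-related GTPase, had 192, 109.8, 5.39 and 1.21 CPM and 2068, 2056, 2077 and 1640.2 CPM, and rose by 5.23. In all 3 the medium libraries of 12 and 24 h lay far below those of 2 and 6 h, and the IFNγ libraries spanned at most a 2-fold range. Gbp4 rose by 7.53, Tgtp1 by 6.18, Gbp10 by 5.01 and Gbp3 by 3.16, and their medium libraries too were lowest at 12 and 24 h. Members of this family are close copies, and reads that fit several of them make single values uncertain.

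MHC class I presents peptides to CD8 T cells after cutting by the immunoproteasome and transport by TAP. All 24 tested genes of the pathway rose, against 18.8% of all genes, with a median of 2.40. Of them 22 rose at least 2-fold, against 4.27% of all genes. In 17 the groups did not overlap, against 12.5% of all genes on the higher side. The heavy chain H2-K1 (chromosome 17, 33996017 to 34000347) stood at 426, 406, 109 and 92.9 CPM with medium and 1388, 1334, 745 and 525 CPM with IFNγ second, and rose by 2.07 (SE 0.32, adjusted p = 3.15e-05). B2m (chromosome 2, 122147686 to 122153083), the light chain, had 1151, 1055, 379.6 and 294 CPM and 1792, 1866, 1267 and 980.1 CPM, a rise of 1.13 (SE 0.26, adjusted p = 0.00158). The groups of B2m overlapped, since the 24 h IFNγ library lay below the 2 and 6 h medium libraries, and its call was lost with only the 2 and 6 h libraries (adjusted p = 0.0528). The peptide transporter Tap1 went from 92.5, 85.4, 9.92 and 6.09 CPM to 315, 321, 296 and 232 CPM, by 2.86 (SE 0.50, adjusted p = 0.000115). Of the immunoproteasome subunits, Psmb9 went from 11.1, 9.01, 0.573 and 0.574 CPM to 81.5, 71.2, 69.0 and 56.2 CPM, by 3.76, and Psmb8 rose by 3.27. Nlrc5, the transactivator of these genes, rose from 44.8, 43.8, 18.5 and 14.1 CPM to 163, 155, 155 and 178 CPM, by 2.47 (SE 0.26, adjusted p = 1.82e-07). Non-classical H2-Q4 rose by 3.19, with reads that other H2 genes may share. The chaperones Calr and Pdia3 had the smaller changes of 0.49 and 0.18, and that of Pdia3 missed the threshold under upper-quartile scaling (adjusted p = 0.349), without the duration factor (adjusted p = 0.187) and without any single library but the 2 h medium-second or 24 h IFNγ-second one (adjusted p from 0.0684 to 0.213).

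Few genes of MHC class II presentation could be tested. Of its 14 genes 10 were in the table and 5 passed the count filter, of which 3 were called higher and 1 lower. That is 60% and 20%, against 18.8% and 17.6% of all genes. The 3 were Ciita, Rfx5 and Rfxap, and the 1 was Rfxank. In a fit of only the 2 groups 1 was called higher and 0 lower, as with only the early or only the late libraries. Ciita, the master regulator, had 0 counts in the medium libraries and 0.163, 0.137, 0.564 and 0.516 CPM with IFNγ, 25 counts in all, at least 8.34-fold higher, and DESeq2 did not call it (adjusted p = 0.414). Ciita passed the count filter through libraries other than the medium-second ones and could only be called higher. The count of 3 is thus no result about class II presentation as a set. The promoter factors Rfx5, Rfxap and Rfxank changed by 0.39, 0.17 and -0.32, the last without a call when a 6 or 12 h library of either group was left out (adjusted p up to 0.0956). Rfxap was not called without any of these or the 24 h IFNγ-second library (adjusted p up to 0.189).

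Of 16 tested chemokines and cytokines 14 rose (87.5%, against 18.8% of all genes), all at least 2-fold, with a median of 2.29. In 7 of the 16 the groups did not overlap, against 12.5% of all genes on the higher side. Cxcl10 (chromosome 5, 92346638 to 92348889), the second CXCR3 ligand, had 122, 55.5, 4.36 and 4.19 CPM with medium and 1315, 1225, 629 and 331 CPM with IFNγ second, a rise of 4.67 (SE 0.74, adjusted p = 3.84e-05). Cxcl11, the third, rose by 5.36, and the monocyte attractant Ccl2 from 5.17, 3.79, 2.29 and 1.49 CPM to 65.5, 65.1, 18.1 and 9.28 CPM, by 3.51 (SE 0.40, adjusted p = 5.51e-07). In all 3 the IFNγ libraries of 12 and 24 h lay below those of 2 and 6 h. Il6 rose by 2.99, the neutrophil attractants Cxcl2 and Cxcl1 by 3.15 and 1.81, and the cytokine Lif by 1.19. With only the 12 and 24 h libraries 9 of the 16 were called higher.

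Among molecules that restrain T cells, 7 of 13 rose and 1 fell, Cd276 with -0.53. The shares were 53.8% and 7.69%, against 18.8% and 17.6% of all genes. Beside Cd274, the tryptophan-degrading enzyme Ido1 had 1 count in the medium libraries and 48 with IFNγ, a ratio of 48.1 (exact 95% counting interval 8.22 to 1940), and stayed at or below 1.14 CPM. Tnfrsf14, the receptor HVEM, had 1 and 57 counts, a ratio of 57.1 (9.84 to 2290). Ido1 and Tnfrsf14 passed the count filter through libraries other than the medium-second ones and could only be called higher. Both are among the 7, so the share of 53.8% is no result about these molecules as a set. Cd47, the signal that keeps phagocytes from engulfing a cell, went from 57.4, 46.7, 37.6 and 29.6 CPM to 114, 100.2, 88.0 and 60.7 CPM, higher by 1.08 (SE 0.16, adjusted p = 1.35e-05). The galectin Lgals3 rose by 1.38, Pvr by 0.34 and the ectonucleotidase Nt5e by 0.28. Pvr was not called without either 6 h library (adjusted p up to 0.167), and Nt5e not without the 6 or 24 h IFNγ-second or the 12 h medium-second library (adjusted p up to 0.0606). The galectin Lgals9 overlapped between the groups at 49.2, 35.8, 1.72 and 0.747 and 86.3, 73.7, 29.6 and 11.9 CPM and missed the threshold with 1.40 (adjusted p = 0.0579). It had 4.06 with only the 12 and 24 h libraries (adjusted p = 0.00396). It was also called with no count filter (adjusted p = 0.0258), in a fit of only the 2 groups (0.0319), and without the 24 h IFNγ-second or the 2 or 6 h medium-second library (0.0304, 0.0211 and 0.0444).

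Of 37 antiviral genes, which type I interferons also induce, 30 rose (81.1%, against 18.8% of all genes), 28 of them at least 2-fold. The median was 1.96, but only in 10 of the 37 did the groups not overlap, against 12.5% of all genes on the higher side. Rsad2, which makes a chain-terminating nucleotide, had 713, 704, 58.0 and 43.3 CPM with medium and 3372, 3655, 1336 and 669 CPM with IFNγ second, a rise of 2.91 (SE 0.57, adjusted p = 0.000387). Its IFNγ library of 24 h lay below the medium libraries of 2 and 6 h, and within every duration IFNγ was higher. Zbp1, a sensor of nucleic acid that can start necroptosis, went from 137, 93.8, 1.49 and 0.689 CPM to 478, 428, 379 and 237 CPM, by 3.33 (SE 0.83, adjusted p = 0.00309). Ifit2 and Ifit3, which bind viral RNA, rose by 3.25 and 3.04, the GTPase Mx2 by 3.17, the ADP-ribosyltransferase Parp14 by 3.07, and the nucleotide kinase Cmpk2 by 3.42. Schlafen and Ifit genes have close copies and may share reads with them. With only the 12 and 24 h libraries 36 of the 37 rose. With only those of 2 and 6 h 21 rose and 1 fell, Ifi27, named after its value was seen, with -0.85 (adjusted p = 0.0135). It also fell without the 24 h medium-second library.

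**Figure D2:**
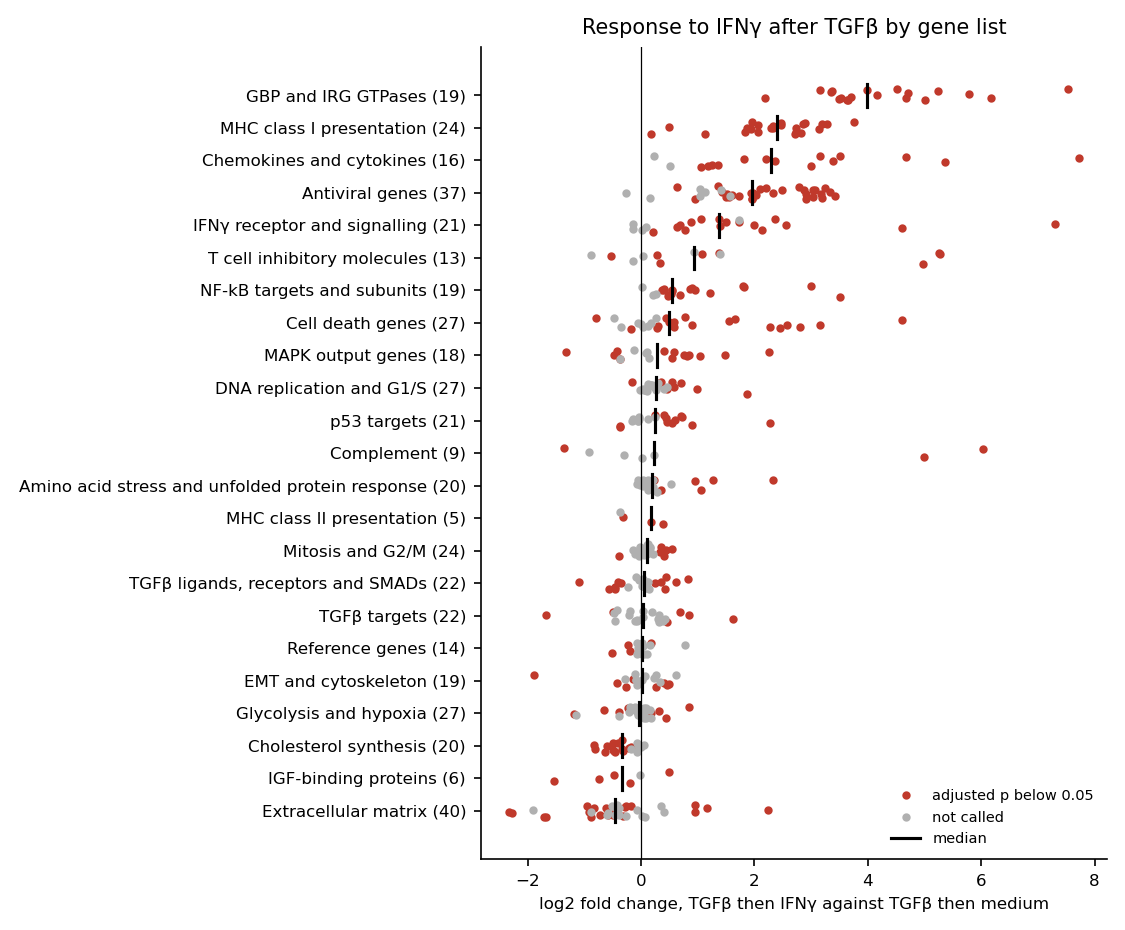
Log2 fold change of IFNγ against medium as second stimulus after TGFβ for the tested members of 23 gene lists, red where the adjusted p was below 0.05 and grey otherwise, with the median of each list as a black bar. Genes with 0 counts in the medium-second libraries are not drawn as points, and the GTPase list lies highest with a median of 3.99.

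Cell death genes rose in 17 of 27 cases and fell in 2, among them the survival gene Bcl2, with a median of 0.50. The shares were 63% and 7.41%, against 18.8% and 17.6% of all genes. The death ligand Tnfsf10 (TRAIL) went from 1.25, 0.383, 0 and 0 CPM to 17.2, 12.1, 8.90 and 4.24 CPM, by 4.61 (SE 0.58, adjusted p = 2.12e-06). The inflammatory caspases Casp4 and Casp1 rose by 3.17 and 2.58, and Casp12 by 2.80. The death receptor Fas rose by 2.27 but held at most 1.63 CPM. Mlkl, the pore former of necroptosis, rose from 204, 164, 103 and 102 CPM to 540.1, 497, 349.6 and 276 CPM, by 1.55 (SE 0.20, adjusted p = 4.01e-06).

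NF-kB targets and subunits rose in 16 of 19 cases (84.2%, against 18.8% of all genes), with a median of 0.55. Nfkb1 and Nfkb2, which encode subunits, rose by 0.41 and 0.54, their co-regulator Bcl3 by 1.22, and the signalling adaptor Traf1 by 1.79. Tnfaip2 stood at 279 to 339 CPM with medium and 276 to 345 CPM with IFNγ second (log2 fold change 0.022, adjusted p = 0.807). Of 9 complement genes 4 rose and 1 fell, 44.4% and 11.1% against 18.8% and 17.6% of all genes. In a fit of only the 2 groups or at a minimum count of 50, 2 rose. C4b had 2 counts with medium and 170 with IFNγ second, a ratio of 85.1 (exact 95% counting interval 23.2 to 709). The protease C1s1 rose by 4.98 and stayed below 3 CPM. C1ra and Serping1 had 0 counts with medium second and were at least 12.4-fold and 8.34-fold higher, and Cd59a, which shields cells from complement, fell by 1.35 on the log2 scale. C4b, C1ra and Serping1 passed the count filter through libraries other than the medium-second ones and could only be called higher. C1s1, with a rise of 4.98 to below 3 CPM, was also near 0 with medium second and had little room for a call lower. The count of 4 is thus no result about complement as a set.

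Among the 12 genes named for the largest falls was the collagen VI chain Col6a1, which went from 12.0, 17.6, 17.4 and 15.9 CPM with medium to 2.82, 2.51, 4.06 and 3.61 CPM with IFNγ second, a change of -2.28 (SE 0.26, adjusted p = 6.5e-07). The sphingosine 1-phosphate receptor S1pr3 stood at 9.23 to 10.8 CPM with medium and at 1.79 to 2.48 CPM with IFNγ second, a change of -2.21 (SE 0.24, adjusted p = 3.45e-07). Mertk, a receptor kinase for the engulfment of dying cells, stood at 13.0 to 16.7 CPM with medium and at 2.19 to 4.90 CPM with IFNγ second, a change of -2.07 (SE 0.16, adjusted p = 1.73e-09). In each of the 3, every IFNγ library lay below every medium library. Also among the lowest were the GTPase-activating protein Arhgap18 (-2.08), the glycosyltransferase Gxylt2 (-1.93), carboxypeptidase M, Cpm (-1.93), the guidance molecule Sema5a (-1.91), the tetraspanin Tspan8 (-1.91) and the sialic acid receptor Cd33 (-1.63). Tenm4 had -1.94 with groups that overlapped across durations.

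Extracellular matrix genes fell in 20 of 40 cases and rose in 4 (Col6a3, Vcan, Timp1 and Timp3). The shares were 50% and 10%, against 17.6% and 18.8% of all genes. The median was -0.45 against -0.0077 for all genes, and 18 of the 40 lay below without overlap, against 12.3% of all genes. Collagen III, Col3a1 (chromosome 1, 45311538 to 45349706), had 424, 523, 354 and 297 CPM with medium and 121, 114, 136 and 112 CPM with IFNγ second, a change of -1.71 (SE 0.25, adjusted p = 1.53e-05). The elastase Mmp12 went from 27.1, 24.3, 29.6 and 26.8 CPM to 5.80, 12.5, 7.04 and 9.68 CPM, a change of -1.67 (SE 0.27, adjusted p = 4.67e-05). Spp1, which encodes osteopontin, stood at 3402 to 4842 CPM with medium and at 2654 to 4097 CPM with IFNγ second, and fell by 0.27 on the log2 scale (adjusted p = 0.0122), without a call when the 24 h IFNγ-second or the 2 h medium-second library was left out (adjusted p up to 0.0625). Fn1, which encodes fibronectin, had 10691, 12026, 14841 and 13740.3 CPM and 6338, 6804, 11909 and 12897 CPM. All 4 pairs of Fn1 were lower with IFNγ, more at 2 and 6 h, and the change of -0.45 (SE 0.18, adjusted p = 0.0568) missed the threshold. It passed with only the 2 and 6 h libraries (adjusted p = 0.0095), under upper-quartile scaling (0.0255), with no count filter (0.0319), in a fit of only the 2 groups (0.0198) and without the 24 h IFNγ-second library (0.00551). Collagen VI was split, since Col6a2 fell by 2.32 on the log2 scale and Col6a3 rose by 2.25, both below 4 CPM. With only the 12 and 24 h libraries 12 of the 40 fell. Fibroblast and endothelial markers summed to 376.6 to 705 CPM with medium second and 161 to 221 CPM with IFNγ second. Both sums include Col3a1 and Dcn, which are also matrix genes. Kdr was at 0, and Pecam1, Vwf, Tie1 and Tek reached at most 0.144 CPM. The endothelial marker Cdh5 stood at 20.3 to 22.4 CPM with medium and 10.9 to 20.1 CPM with IFNγ second. The fibroblast marker Pdgfra stood at 9.02 to 10.1 and 6.88 to 9.14 CPM. Dcn had 125, 146, 54.6 and 46.7 CPM and 57.4, 74.0, 37.5 and 26.4 CPM, and its change of -0.89 was not called without any single library but the 24 h medium-second one (adjusted p up to 0.171). The part of these markers in the matrix result was not tested.

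Cholesterol synthesis genes fell in 14 of 20 cases (70%, against 17.6% of all genes), with a median of -0.33. Of the 20, 8 lay below without overlap, against 12.3% of all genes. Mvd, of the mevalonate pathway, went from 17.9, 16.4, 16.9 and 20.0 CPM with medium to 7.15, 8.13, 11.7 and 14.2 CPM with IFNγ second, a change of -0.81 (SE 0.12, adjusted p = 2.4e-05). Lss, which closes the sterol rings, had 42.7, 43.9, 35.4 and 44.6 CPM and 25.8, 23.4, 28.3 and 33.1 CPM, and fell by 0.61 on the log2 scale. The sterol carrier Stard4 fell by 0.63 and Hmgcs1 by 0.33. The changes were under 2-fold, and with only the 12 and 24 h libraries 7 of the 20 fell. In the cells given medium first, 6 of the 20 fell and 4 rose with IFNγ, against backgrounds of 21.2% and 22.7% of all genes. The direct test of the difference between both responses called 0 of the 20, with a median difference of -0.27. The fall is thus not shown to be particular to cells given TGFβ first.

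Of 27 genes of DNA replication and the G1/S transition 9 rose (33.3%, against 18.8% of all genes) and 1 fell (Cdk4), with a median of 0.27. Of 24 mitotic genes 5 rose (Cdk1, Aurka, Top2a, Birc5 and Foxm1), a share of 20.8% that is close to that of all genes, and 1 fell (Cenpa), with a median of 0.10. Cyclin E1, Ccne1, which opens S phase, went from 25.5, 15.5, 21.6 and 25.5 CPM to 109, 94.4, 62.5 and 51.2 CPM, by 1.87 (SE 0.21, adjusted p = 6.12e-07). Mcm10 and Cdc45, of the replication fork, rose by 0.71 and 0.59, and the topoisomerase Top2a by 0.55. Mki67, the proliferation antigen, overlapped at 394, 427, 481 and 592 and 417, 413, 404 and 515 CPM (log2 fold change -0.11, adjusted p = 0.664). The 9 genes became 15 in a fit of only the 2 groups, 1 with only the 12 and 24 h libraries, 5 under upper-quartile scaling, and 4 and 5 without the IFNγ-second library of 2 and 6 h. The 5 mitotic genes became 0 with only the later libraries, 3 under upper-quartile scaling or without the duration factor, and 3 without the 6 h IFNγ-second or the 2 h medium-second library. Cenpa was not called without the 2, 6 or 12 h IFNγ-second or the 6 h medium-second library (adjusted p up to 0.128), Cdk1 not without the 6 h IFNγ-second or the 2 h medium-second one (up to 0.127), and Birc5 not without the 2 or 6 h IFNγ-second or the 2, 6 or 12 h medium-second one (up to 0.14).

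Early response genes of the MAPK pathway, on which mutant NRAS acts, rose in 9 of 18 cases and fell in 4 (Spry1, Etv1, Etv4 and Etv5). The shares were 50% and 22.2%, against 18.8% and 17.6% of all genes. Egr1 went from 113, 35.7, 61.9 and 53.2 CPM to 347, 310.1, 286 and 215 CPM, by 2.26 (SE 0.25, adjusted p = 5.45e-07). Jun stood at 204 to 322 CPM with medium and at 672 to 752 CPM with IFNγ second, and rose by 1.36 (SE 0.13, adjusted p = 3.95e-08). Myc stood at 187 to 322 CPM with medium and at 403 to 550.5 CPM with IFNγ second, and rose by 0.81 (SE 0.12, adjusted p = 2.31e-05). Fos, Dusp5 and Phlda1 rose by 1.47, 1.03 and 0.84. No library of Egr1, Jun or Myc overlapped. The inhibitor Spry1 fell from 32.7, 33.0, 29.3 and 25.6 CPM to 11.1, 12.7, 10.7 and 13.6 CPM, by 1.33 on the log2 scale. The ETS factors Etv1, Etv4 and Etv5 fell by 0.37, 0.42 and 0.48, while Nras itself stood at 101 to 109 CPM and 103 to 106 CPM (log2 fold change -0.0097, adjusted p = 0.911). In the amino acid and unfolded protein stress responses 6 of 20 genes rose (30%, against 18.8% of all genes). These included Atf3 by 2.33, Ddit3 (CHOP) by 1.28, and the chaperone Hspa5 from 1192, 1059.8, 846 and 994 CPM to 2666, 2961, 1597 and 1351 CPM, by 1.05 (SE 0.15, adjusted p = 9.39e-06). Of 21 p53 targets 10 rose (47.6%, against 18.8% of all genes), 6 with only the 12 and 24 h libraries. Another 2 fell (9.52%, against 17.6%), Sesn1 and Rrm2b. The 2 became 1 without any single library but the 24 h IFNγ-second or the 6 h medium-second one, and Sesn1 was not called without any but the former (adjusted p up to 0.178). The cell cycle inhibitor Cdkn1a rose by 0.70. Of 27 glycolysis and hypoxia genes 4 rose (Slc2a1, Hk1, Hk2 and Pfkp) and 4 fell (Pfkl, Pdk1, Bnip3l and Egln3), 14.8% each way and so below the shares of all genes (18.8% and 17.6%). The later libraries alone gave 2 that rose and 1 that fell, and without the duration factor 2 fell. Of these Hk1 was not called without the 2 or 6 h IFNγ-second library (adjusted p up to 0.0606) and Pfkl not without the latter (0.0702). Hexokinase 2, Hk2, rose from 172, 169, 211 and 203 CPM to 319, 352, 352 and 323 CPM, by 0.85 (SE 0.069, adjusted p = 3.73e-09), and the oxygen sensor Egln3 stood at 56.0 to 101 CPM with medium and at 22.4 to 43.0 CPM with IFNγ second, and fell by 1.19 on the log2 scale.

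Genes of the TGFβ pathway itself moved in both directions. Of 22 ligands, receptors and SMAD genes 6 rose (Smad7, Smurf1, Skil, Bambi, Ltbp1 and Eng) and 6 fell (Tgfb1, Tgfbr1, Tgfbr3, Ski, Ltbp3 and Ltbp4). That is 27.3% each way, against 18.8% and 17.6% of all genes. The median was 0.059, and -0.039 under upper-quartile scaling. The ligand Tgfb1 stood at 49.9 to 61.7 CPM with medium and at 38.7 to 47.3 CPM with IFNγ second, and fell by 0.40 on the log2 scale (adjusted p = 0.0093), and its call was lost with only the 12 and 24 h libraries (adjusted p = 0.274). The signalling receptor Tgfbr1 had 90.2, 104, 84.8 and 74.0 CPM with medium and 70.5, 66.3, 62.7 and 56.0 CPM with IFNγ second, with no overlap and a change of -0.46 (SE 0.091, adjusted p = 0.000408). Tgfbr2 stood at 46.7 to 56.7 and 43.0 to 52.5 CPM (log2 fold change -0.081, adjusted p = 0.447), and the co-receptor betaglycan, Tgfbr3, went from 49.4, 63.7, 39.2 and 27.2 CPM to 18.4, 26.0, 18.8 and 18.9 CPM, a change of -1.09 (SE 0.13, adjusted p = 1.53e-06). The decoy receptor Bambi rose by 0.84 and the co-receptor endoglin, Eng, by 0.63. The repressor Ski fell by 0.46 on the log2 scale and its relative Skil rose by 0.25. The latent TGFβ binding proteins Ltbp3 and Ltbp4 fell by 0.56 and 0.36.

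Of 22 TGFβ targets 4 rose, among them Ggct, Itgb3 and Tgm2, and 2 fell (Mmp12 and Id3), against 18.8% and 17.6% of all genes. The 2 became 1 without the 2 or 6 h and 5 without the 24 h IFNγ-second library, and 4 under upper-quartile scaling, with no count filter or with only the 2 and 6 h libraries. In a fit of only the 2 groups 8 rose and 5 fell, and with only the 12 and 24 h libraries 2 rose and 1 fell. Smad7, the inhibitory SMAD, had 46.7, 32.3, 60.1 and 59.1 CPM and 65.4, 62.8, 61.7 and 57.0 CPM. Its change of 0.35 (SE 0.11, adjusted p = 0.0192) rested on 2 and 6 h, and with only the 12 and 24 h libraries it was -0.0031 (adjusted p = 1). It was not called without any single 2 or 6 h library (adjusted p up to 0.119). The matrix gene Fbln2 had 125, 135, 225 and 251 CPM and 88.7, 92.3, 165 and 207 CPM, with every pair lower with IFNγ and a change of -0.43 (adjusted p = 0.0651). It was called lower in a fit of only the 2 groups (adjusted p = 0.0026), under upper-quartile scaling (0.0276), with no count filter (0.0491), with only the 2 and 6 h libraries (0.0115), and without the 24 h IFNγ-second or the 2 h medium-second library (0.00681 and 0.0325). Id3, a target that TGFβ family signals control, fell by 0.49 on the log2 scale, without a call when the 2 or 6 h IFNγ-second library was left out (adjusted p up to 0.0942). Igfbp5, an IGF-binding protein, went from 413, 524, 310.1 and 249 CPM to 122, 161, 115 and 103 CPM, a change of -1.53 (SE 0.37, adjusted p = 0.00225). The IGF2 receptor Igf2r stood at 204 to 279 CPM with medium and at 127 to 171 CPM with IFNγ second, a change of -0.74 (SE 0.078, adjusted p = 1.88e-07).

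Genes of melanoma states moved in both directions. Of 15 genes of undifferentiated melanoma 5 rose (Sox9, Nt5e, Fosl1, Jun and Nes) and 2 fell (Wnt5a and Tead1), 33.3% and 13.3% against 18.8% and 17.6% of all genes. The later libraries alone gave 1 that rose and 0 that fell, and under upper-quartile scaling 4 fell. The receptor kinase Axl, a mark of that state, stood at 1101 to 1219.8 CPM with medium and at 1125 to 1402 CPM with IFNγ second (log2 fold change 0.10, adjusted p = 0.211). The 2 became 1 without any single library but the 2 or 6 h IFNγ-second or the 24 h medium-second one, and Wnt5a was not called without the 12 or 24 h IFNγ-second or the 2, 6 or 12 h medium-second library (adjusted p up to 0.1). Of 4 tested melanocyte genes the factor Pax3 rose by 0.44, while its partner Mitf had -0.068 (adjusted p = 0.585). Of 19 genes linked to mesenchymal state or to the cytoskeleton 4 rose (Twist1, Zeb2, Cdh2 and Itgb3) and 4 fell (Tpm1, Actn1, Flna and S100a4), 21.1% each way and so near the shares of all genes, with a median of 0.011 that was -0.086 under upper-quartile scaling. The 4 that fell became 2 without the duration factor and 1 with only the 12 and 24 h libraries. The 4 that rose became 7 with DESeq2 and without the 24 h IFNγ-second library, and Actn1 was not called without the 2 h IFNγ-second or the 12 h medium-second one (adjusted p up to 0.106). N-cadherin, Cdh2, rose by 0.41, and S100a4 fell by 1.88 on the log2 scale. Of 14 reference genes 1 rose (B4galt3) and 3 fell (Ppia, Gusb and Sdha), 7.14% and 21.4% against 18.8% and 17.6% of all genes. The median of the 14 was 0.024, and -0.073 under upper-quartile scaling, where 5 fell. B4galt3 was not called without any single library but those of 12 and 24 h with IFNγ second (adjusted p up to 0.184).

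The interferon genes differed in their response between short and long TGFβ stimulation, and the medium side carried most of it. In duration pairs, the median response of the 19 GTPases was 3.15 at 2 h, 3.07 at 6 h, 6.80 at 12 h and 6.82 at 24 h. That of the 37 antiviral genes was 1.05, 1.23, 4.09 and 4.08, and that of the 24 MHC class I genes 1.78, 1.85, 3.46 and 3.38. The step lay between 6 and 12 h, with little change on either side of it. Chemokines had medians of 1.60, 3.02, 2.07 and 1.61 and matrix genes -0.49, -0.62, -0.37 and -0.30, with no such step. A slope on log2 duration was called for 1 gene (0.0067%, 670 at an unadjusted p below 0.05), and for 54 and 22 genes without the 2 or the 6 h medium-second library. With 12 and 24 h set against 2 and 6 h, edgeR called a larger response at the later durations for 152 genes (1.02%) and a smaller one for 24 (0.161%), with 1295 at an unadjusted p below 0.05. Larger responses were called for 16 of the 19 GTPases, 17 of 24 MHC class I genes, 31 of 37 antiviral genes and 6 of 21 signalling genes. The difference was 4.19 (SE 0.58, adjusted p = 0.000201) for Gbp2, 6.16 (SE 0.64, adjusted p = 6.86e-06) for Zbp1 and 3.20 (SE 0.33, adjusted p = 6.05e-06) for Tap1.

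**Figure D3:**
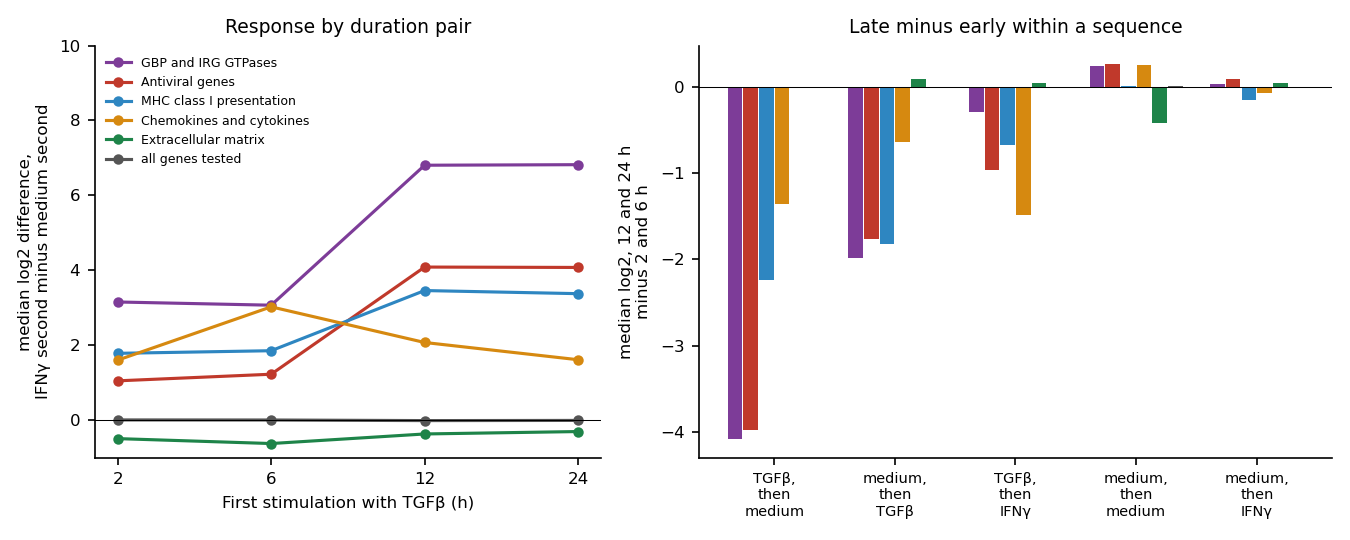
Left, median log2 difference between IFNγ and medium as second stimulus within each pair of TGFβ duration, for 5 gene lists and all tested genes. Right, median log2 level at 12 and 24 h minus that at 2 and 6 h of the first stimulus within each of 5 sequences. The GTPase medians are 3.15, 3.07, 6.80 and 6.82 across durations, and their late minus early medians are -4.08 with TGFβ then medium, -1.98 with medium then TGFβ and -0.29 with TGFβ then IFNγ.

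Within the medium-second libraries the level of 12 and 24 h minus that of 2 and 6 h had a median of -4.08 on the log2 scale over the GTPases, -3.98 over antiviral genes and -2.24 over MHC class I genes. In the IFNγ-second libraries the same medians were -0.29, -0.96 and -0.67. Over all genes, edgeR called 606 lower (4.06%) and 377 higher (2.52%) at the later durations with medium second, and 853 (5.71%) and 640 (4.29%) with IFNγ second. The response contrast shares its libraries with both, so these values are set side by side and not as separate evidence. The 4 libraries of medium followed by TGFβ had 24 h of TGFβ each, whatever the length of the medium before it, and they too differed between 2 and 6 h and 12 and 24 h. Their medians were -1.98 for GTPases, -1.76 for antiviral genes and -1.83 for MHC class I genes, and 514 genes were lower (3.44%) and 389 higher (2.6%) at 12 and 24 h. Of the 606 genes lower with TGFβ then medium and the 514 lower with medium then TGFβ, 365 were shared, 60.2% and 71% of each list. Gbp2, for example, had 130.2, 104, 14.9 and 41.8 CPM with medium then TGFβ, and Irf7 500.2, 497, 35.5 and 111 CPM. Without TGFβ, medium then medium gave medians of 0.24, 0.27 and 0.020 and medium then IFNγ of 0.033, 0.096 and -0.15, with 3 genes lower (0.0201%) and 6 higher (0.0402%) at 12 and 24 h in the latter. The duration of TGFβ and other differences between the libraries of 2 and 6 h and those of 12 and 24 h cannot be told apart.

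The 1 gene with a called slope was Fst, which encodes follistatin, a secreted binder of activins. It stood at 27.1, 22.6, 15.4 and 16.4 CPM with medium and at 257, 316, 352 and 405 CPM with IFNγ second, which were all far above and higher with each longer duration. Its response grew by 0.41 on the log2 scale per doubling of the TGFβ duration (adjusted p = 0.024), beside an overall rise of 4.00 (SE 0.16, adjusted p = 1.33e-14). The slope was not called in a fit of only these 2 sequences (adjusted p = 0.243), nor without any single IFNγ-second library (adjusted p from 0.0517 to 0.341) or without the 2 or 24 h medium-second library (adjusted p = 0.0712 and 0.0749). Among the 24 genes with a smaller response at 12 and 24 h were Mdm2, the p53 antagonist, with -0.49 (SE 0.092, adjusted p = 0.00504), and the neural crest factor Sox9 with -0.79 (SE 0.16, adjusted p = 0.00769). Mdm2 had 271, 260.1, 286 and 313 CPM with medium and 407, 429, 328 and 344 CPM with IFNγ second, so that here the IFNγ side carried the step.

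The response after TGFβ was also set against the response after medium, with no library shared between them. For IFNγ after medium edgeR called 3388 genes higher (22.7%) and 3159 lower (21.2%). Of the 2808 genes that rose after TGFβ 2182 also rose after medium, which is 77.7% of the first list and 64.4% of the second, and 15 fell. Of the 2626 that fell 1931 also fell after medium, 73.5% and 61.1%, and 3 rose. The difference between both responses was called for 59 genes (0.395%), 48 with a higher (0.321%) and 11 with a lower value after TGFβ (0.0737%), while 1926 had an unadjusted p below 0.05 and DESeq2 called 225. The count was 16 without the duration factor, 282 with only the 12 and 24 h and 33 with only the 2 and 6 h libraries of the TGFβ-first sequences, and it lay between 31 and 203 when single libraries were left out and was 8 without the 12 h libraries. It was 203 without the 2 h library of medium then medium, 34 and 36 without the 2 and 6 h libraries of medium then IFNγ, 38 and 32 without those of 2 and 12 h of TGFβ then IFNγ, and 31 and 32 without those of 6 and 24 h of TGFβ then medium. The 6 h library of medium then medium stood apart from its group, and without it 87 genes were called.

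**Figure D4:**
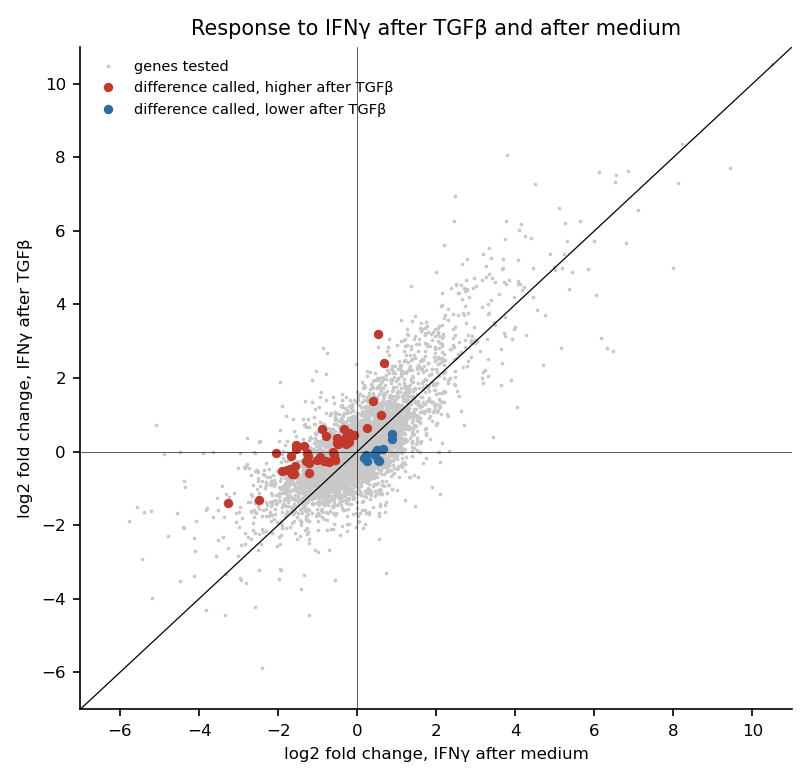
Log2 fold change of IFNγ against medium as second stimulus after TGFβ (vertical) against the same after medium (horizontal) for 14935 genes, with the line of equal responses. The 48 genes with a called higher difference are red and the 11 with a lower one blue, and most of the red ones lie left of the vertical zero line.

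Of the 48 genes with a higher difference 41 had fallen with IFNγ after medium, and 37 of these had a smaller change in size after TGFβ. After TGFβ, 16 of the 41 were not called, 14 fell and 11 rose. Of the other 7, 4 rose in both settings and 3 rose after TGFβ without a call after medium. All 11 genes with a lower difference had risen after medium, and after TGFβ 6 of them were not called, 3 fell and 2 rose. The same medium-first libraries define both the difference and the response after medium, so these counts describe the genes and do not support the difference.

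Tnnt2, a troponin of striated muscle, had the lowest adjusted p. It stood at 148, 164, 149 and 146 CPM with medium then medium and 47.0, 58.9, 50.4 and 51.7 CPM with medium then IFNγ, and after TGFβ at 393, 449, 459 and 485 CPM with medium and 486, 545, 500.3 and 509 CPM with IFNγ second. IFNγ lowered it in the first setting and was not called in the second (log2 fold change 0.19, adjusted p = 0.12), where a fit of only the 2 groups and one without the 24 h medium-second library called it higher (adjusted p = 0.0205 and 0.0192), a difference of 1.74 (SE 0.13, adjusted p = 6.97e-08). Fgf2, a growth factor of melanoma cells, had 22.8, 45.5, 23.3 and 23.4 CPM and 10.1, 8.96, 8.11 and 8.34 CPM after medium, against 37.0, 36.7, 40.5 and 34.8 and 36.3, 35.6, 33.1 and 32.0 CPM after TGFβ. After medium it was lower with IFNγ in all 4 pairs, and after TGFβ the values overlapped, a difference of 1.54 (SE 0.19, adjusted p = 0.000156). Vegfa, the vascular growth factor, stood at 1001 to 1883 CPM with medium then medium and 396 to 692 CPM with medium then IFNγ, against 1311 to 1671 and 1201 to 1693 CPM after TGFβ, a difference of 1.13 (SE 0.15, adjusted p = 0.000348).

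Ass1, the enzyme that makes argininosuccinate for arginine synthesis, fell with IFNγ after medium from 8.91, 12.2, 8.04 and 8.20 CPM to 5.15, 6.27, 4.71 and 3.95 CPM and rose after TGFβ from 23.7, 23.0, 15.9 and 15.2 CPM to 34.0, 39.2, 26.0 and 21.2 CPM. The difference was 1.51 (SE 0.20, adjusted p = 0.000435), and both changes were called. Ntn1, the guidance cue netrin 1, rose in both settings, after medium from 6.49, 8.90, 7.05 and 7.53 CPM to 9.94, 10.6, 15.2 and 12.3 CPM and after TGFβ from 2.91, 2.73, 2.58 and 1.78 CPM to 9.16, 9.37, 18.6 and 17.8 CPM, a difference of 1.73 (SE 0.28, adjusted p = 0.00298). Tnfrsf11b, the decoy receptor osteoprotegerin, had 1.33, 1.21, 0.296 and 1.22 and 2.22, 1.74, 0.760 and 1.06 CPM after medium and 1.86, 1.44, 1.20 and 0.574 and 21.0, 22.9, 5.30 and 3.15 CPM after TGFβ. Its high values were those of 2 and 6 h of TGFβ followed by IFNγ, and the difference of 2.67 (SE 0.59, adjusted p = 0.0448) was not called without any single one of 11 of the 16 libraries behind it (adjusted p up to 0.127). Megf10, an engulfment receptor, fell in both settings and less after TGFβ, with 1.85 (SE 0.32, adjusted p = 0.00643). Skil, the SMAD repressor, fell after medium (-0.29) and rose after TGFβ (0.25), a difference of 0.54 (SE 0.076, adjusted p = 0.000495). Further higher differences were those of the homeobox gene Dlx2 (1.38), Igfbp7 (1.21), Igfbp4 (0.59) and Spp1 (0.56).

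**Figure D5:**
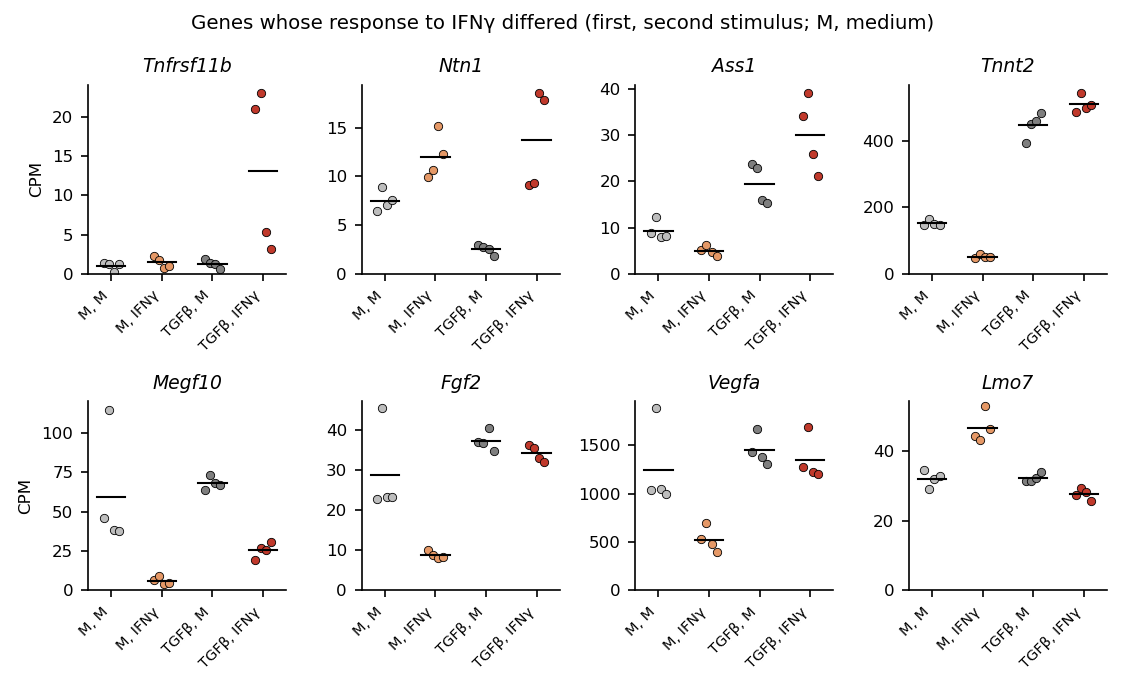
CPM of 8 genes whose response to IFNγ differed between medium-first and TGFβ-first cells, with 1 point per library and a line at the mean of 4 libraries. Each panel shows medium then medium, medium then IFNγ, TGFβ then medium and TGFβ then IFNγ, and Tnnt2 lies at 486 to 545 CPM in the last group against 47.0 to 58.9 CPM with medium then IFNγ.

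In the other direction, Lmo7, a protein of cell junctions, rose with IFNγ after medium (0.54) and fell after TGFβ from 31.3, 31.4, 32.2 and 34.0 CPM to 27.3, 29.4, 28.3 and 25.5 CPM, a difference of -0.76 (SE 0.10, adjusted p = 0.000176). The fall after TGFβ was not called without either single 24 h library (adjusted p up to 0.0584). The difference was called without each of the 16 libraries. The caveola protein Cavin3 had -0.80, the mitochondrial transporter Abcb10 -0.57, the inositol kinase Itpk1 -0.54, Oaf -0.54, Ccdc181 -0.51, the semaphorin Sema4b -0.49 and Nudt9 -0.46. All of these were below 2-fold. Of the 20 named genes with a difference, 5 were called under every alternative run (Ass1, Fgf2, Lmo7, Tnnt2 and Vegfa). Megf10 and Ntn1 lost the call in a fit of only the groups compared (adjusted p = 0.113 and 0.101), and Skil and Oaf without the duration factor (adjusted p = 0.0859 and 0.108). These 9 were called without each of the 16 libraries in turn. Besides Tnfrsf11b, the others were Sema4b (not called without 13 of the 16, adjusted p up to 0.125), Abcb10 and Nudt9 (12 each, up to 0.126 and 0.121), Ccdc181 (9, up to 0.0961), Cavin3, Igfbp7 and Spp1 (8 each, up to 0.0709, 0.0961 and 0.0819), Dlx2 and Igfbp4 (7 each, up to 0.0868 and 0.087) and Itpk1 (6, up to 0.0716).

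Genes of the main interferon lists were not among the 59. Of the 101 tested genes of the signalling, GTPase, MHC class I and antiviral lists, edgeR called a difference for 0, with 45 at an unadjusted p below 0.05, and DESeq2 for 2 (Stat3 and Gbp8, named after their values were seen). The median differences were 0.15, 1.71, 0.96 and 1.32, against -0.0011 for all genes. Levels reached with IFNγ were close in both settings for Gbp2, at 2484, 2469, 2775 and 2809 CPM after medium and 2406, 2329, 2446 and 1835 CPM after TGFβ, while its medium-second libraries held 212, 97.9, 221 and 233 and 146, 77.6, 7.74 and 3.33 CPM. For Cxcl9 the difference was -1.71 (adjusted p = 0.506), for Cd274 1.55 (adjusted p = 0.27), for Irf1 0.88 (adjusted p = 0.315) and for H2-K1 0.97 (adjusted p = 0.354). These did not pass the threshold, which does not show that the responses were equal.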

How the data were processed

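mRNA of 29 libraries was prepared with a stranded kit and sequenced, per the labels' protocols. The authors deposited raw read counts per gene, whole numbers for 28229 Ensembl IDs, of which 28164 were named through GENCODE M21. HISAT and GRCm38 are named, with no version, in the submitters' processing notes. How reads were counted (tool, annotation, strand setting, reads that fit several genes) was not given in the sources used here. Overlapping, antisense and closely similar genes may share reads. No table row lacked a gene ID.

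Groups were taken from the labels. All 29 libraries entered 1 fit in edgeR 4.0.16 (quasi-likelihood test, R 4.3.3, limma 3.58.1) of group and duration, with 18 residual degrees of freedom, TMM scaling and 14935 genes kept by filterByExpr at a minimum count of 10. P-values were adjusted by the Benjamini-Hochberg method across the genes tested, and a gene is called below 0.05. CPM are scaled by TMM. Named genes with 0 to 2 counts over the 4 medium-second libraries passed the filter through other libraries and could only be called higher. These were Serpina3f, Ciita, C1ra, Serping1, C4b, Ido1 and Tnfrsf14. Genes with a few more counts there, such as Apol6 and C1s1, were also near 0 with medium second and had little room for a call lower. The trend model has a slope on log2 duration per group (14 residual degrees of freedom). The contrast of 12 and 24 h with 2 and 6 h was planned for the trend, and its use within single groups, like the fits of only the early or late TGFβ-first libraries, was added after the data were seen. No 2 libraries of a group were alike within counting noise. The durations pair the libraries: deviations from group means correlated at 0.192 to 0.398 between the IFNγ-second and medium-second libraries of the same duration after TGFβ. After medium that was 0.00158 to 0.233.

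Genes were named by rule: the 12 highest and 12 lowest called fold changes with 1 sign in all 4 pairs and at least 5 CPM, the 8 highest and 8 lowest called differences, called slopes, up to 6 largest changes and 3 highest levels per list, and a set of pathway genes. Others are list members behind a count of 6 or fewer. Some genes that these rules name are not reported here. Counts over lists and over all genes include them, and counts of named genes do not. The 27 lists (552 genes) and the comparison itself were chosen with earlier results of these data known. Alternatives were DESeq2 1.42.0, other scaling and filters, no duration factor, fewer groups and leaving out libraries. On data simulated from these libraries for this comparison (14565 genes), the fit recovered 50.8% of genes changed by 0.5 on the log2 scale, 69.2% at 1 and 86.2% at 2, and called 6 of 14370 unchanged genes. The simulated data had no differences between durations and only 65 changed genes of each size, where 5434 genes were called here. These rates check the fit and do not carry over to the real comparison. Intervals of count ratios cover counting error only. Figures were drawn with matplotlib 3.10.9.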

Additional observations from a re-analysis of the deposited data

Results flagged for a closer look

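The response to IFNγ at 12 and 24 h of TGFβ was larger than at 2 and 6 h by the edgeR test of that difference for 21 of the 55 interferon genes named in the text. Irf1, Cxcl9, Cd274 and H2-K1 were not among them. On the log2 scale the difference was 6.16 for Zbp1, 6.34 for Gbp10, 5.77 for Tgtp1, 5.36 for Iigp1, 4.56 for Gbp3, 4.19 for Gbp2 and 3.29 for Gbp5. Among antigen presentation genes it was 3.96 for Psmb8, 3.83 for Psmb9, 3.20 for Tap1, 2.55 for H2-Q4, 1.51 for Nlrc5 and 1.01 for B2m. Among factors and antiviral genes it was 3.78 for Irf7, 3.62 for Ifit3, 3.56 for Parp14, 3.39 for Mx2, 3.16 for Lgals9, 2.85 for Cmpk2, 2.78 for Nmi and 2.00 for Rsad2. Outside these lists Ntn1 had 1.34 and Fst 1.05, and Mdm2 and Sox9 went the other way with -0.49 and -0.79.

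The response also differed after TGFβ from that after medium, by the edgeR test of the difference. The genes with a higher value after TGFβ were Tnfrsf11b (2.67), Megf10 (1.85), Tnnt2 (1.74), Ntn1 (1.73), Fgf2 (1.54), Ass1 (1.51), Dlx2 (1.38), Igfbp7 (1.21), Vegfa (1.13), Igfbp4 (0.59), Spp1 (0.56) and Skil (0.54). Those with a lower value were Cavin3 (-0.80), Lmo7 (-0.76), Abcb10 (-0.57), Oaf (-0.54), Itpk1 (-0.54), Ccdc181 (-0.51), Sema4b (-0.49) and Nudt9 (-0.46).

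One library of 4 lay far from the other three of its group in 13 of 358 groups of genes named by rule (3.63%, where chance flags about 5%). With medium second the 2 h library was the highest for Batf2 (0.803 CPM), Cxcl2 (0.552 CPM), Gbp4 (3.61 CPM), Socs1 (5.17 CPM), Ido1 and Tnfrsf14 (both 0.0502 CPM, 1 count), and the 24 h library the lowest for Mitf (10.3 CPM). With IFNγ second the 24 h library stood apart for Iigp1 (1640.2 CPM) and Mki67 (515 CPM), the 12 h library for Jak1 (193.5 CPM), the 6 h library for Vegfa (1693 CPM) and Tgfbr3 (26.0 CPM), and the 2 h library for Rfxap (30.7 CPM).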

How the results depend on the processing

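The 5434 genes called between IFNγ and medium after TGFβ became 1973 with only the 12 and 24 h TGFβ-first libraries (1173 higher, 800 lower). Upper-quartile factors gave 1820 higher and 4044 lower. Under the other alternatives run the count stayed within 1.5 times, from 3667 to 5716 when libraries or durations were left out, with 1897 to 2989 higher and 1770 to 2727 lower. Of 177 named genes called, 155 were called without each of the 8 libraries in turn, and Smad7 changed sign, to -0.0031 with only the 12 and 24 h libraries. With only the 12 and 24 h libraries 56 of the named calls were lost, with only the 2 and 6 h libraries 16, without the duration factor 18, with upper-quartile factors 10 and with DESeq2 2. The duration numbers pair the libraries, and in a fit without this replicate block 4059 genes were called.

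The 59 differences from the response after medium (48 higher, 11 lower) were 225 with DESeq2 (149 and 76), 114 with no count filter (98 higher), 18 lower with upper-quartile factors, 282 with only the 12 and 24 h TGFβ-first libraries (240 and 42) and 33 with only those of 2 and 6 h (30 and 3). Without the replicate block they were 16 (14 and 2), and with the replicate block but only the groups compared 16 (13 and 3). Leaving out libraries or durations gave 8 to 203 (7 to 126 higher, 1 to 77 lower).

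The 1 slope with duration became 45 with DESeq2 (42 higher, 3 lower), 60 with no count filter (58 and 2), 3 higher with only the groups compared, and 176 when 12 and 24 h were set against 2 and 6 h (152 and 24). Without single libraries it ranged from 0 to 54, all higher. The cause of these shifts was not tested, apart from the fewer libraries in the fits that leave some out. Depth limits the genes with few counts.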
